A study of Mus musculus with 8 samples.

Results

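The Shc family is a set of 4 adaptor genes, Shc1, Shc2, Shc3 and Shc4, and it was read by 6 of the 39429 probes of a mouse expression array. These 6 were every probe, control spots aside, that the scanner files list under one of the 4 gene names: 1 for Shc1, 2 for Shc2, 1 for Shc3 and 2 for Shc4. The samples were NMuMG-NT2197 cells, a derivative of the NMuMG line of mouse mammary epithelium, and NT2197 derivatives are known for carrying an activated ErbB2 (Neu) receptor. In 4 samples, called R175Q here, the cells had received a pMSCV/hygro vector with a cDNA of ShcA whose arginine at residue 175 is replaced by glutamine. In the other 4, called wild type here, they had received the same vector with wild-type ShcA, so both groups carry an added ShcA cDNA and no group without one was analysed here. Each array held 1 sample in Cy3 (green dye) and a common reference RNA in Cy5 (red dye), with dyes never exchanged. The labels call that reference mouse in 1 field and human in another, which was not settled. Every level below is the log2 of the sample's Cy3 signal over the reference's Cy5 signal.

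Shc proteins link activated receptor tyrosine kinases to the signalling routes inside the cell. They bind phosphorylated tyrosines through a PTB domain and an SH2 domain, and tyrosines of their own, once phosphorylated, recruit Grb2 and with it the Ras and ERK kinase route. Shc1, whose proteins are called ShcA, is present in most tissues and is known in the mammary gland for relaying ErbB2 signals. Shc2 and Shc3 are best known from neurons, and Shc4 from brain, skeletal muscle and melanoma cells. R175Q lies in the PTB domain of ShcA.

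The probes are the measuring device of every value that follows, so 30 bases of 5 of them are shown, as the array files give them and with their mm9 positions; capitals mark the longest run, of at least 15 bases, that another probe of the array holds on either strand, and a stretch without capitals holds no such run.
Shc1 A_55_P1979082, chr3:89233898-89233927, plus strand: caaagggaaatagtcttcattaaagttcgt
Shc2 A_55_P2027077, chr10:79080826-79080855, minus strand: cttgagaaatggCTCAGGGGTTAAGAGCtc
Shc3 A_55_P1985536, chr13:51526537-51526566, minus strand: gggagtgAGCTTTGTCTCCAGCAaccagtg
Shc4 A_51_P356602, chr2:125455334-125455363, minus strand: ccccaagaaatgatgactcccggaactgtg
Shc4 A_55_P1968763, chr2:125453931-125453960, minus strand: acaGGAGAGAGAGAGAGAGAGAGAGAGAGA

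Shc1 and the first Shc4 probe share no run of 15 bases with any other probe. The Shc2 probe shown shares at most 16 bases, with a Cnpy3 probe, and the Shc3 probe shares 16 with a Ccdc114 probe. The second Shc4 probe is of another kind. It holds a run of 26 bases of alternating G and A, and it shares a run of 15 bases or more with 21 other probes, 12 on the same strand and 9 on the opposite one. A run of 15 bases of that probe, on either strand, also occurs in 0.314% of 32851 mouse promoters in a RefSeq table, against 0.003% to 0.009% for the other 5 probes. The 2 Shc4 probes lie 1343 bases apart. Whether any of the 6 lies in coding sequence or in a UTR was not determined, since no gene model of that build was used here.

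Between 53.74% and 63.03% of the 43020 spots that are not controls stood well above background in Cy3, and no spot was saturated. Arrays were alike over all tested probes, with Pearson's r between 0.9687 and 0.9958 (across probes, which are not independent replicates). Of 22849 tested probes, limma's moderated test called 4035 at an adjusted p under 0.05, which is 17.7%. Of these, 1804 (7.9%) were higher and 2231 (9.76%) lower in R175Q. That split rests on the scaling: median centring of the arrays, without loess, gave 2791 higher and 813 lower. In 22.9% of tested probes the groups did not overlap. The labels do not say whether the 4 samples of a group were separate cultures, so p-values measure only the spread between these samples.

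None of the 5 Shc probes that could be tested was called, and for each of them the values of the 2 groups overlapped. The sizes were small: the differences, R175Q less wild type, ran from -0.12 for Shc1 to 0.15 for the second Shc2 probe on the log2 scale. All 5 were well above background in both dyes on all 8 arrays, so these are measured levels and not bounds. The Shc3 probe was well above background in Cy3 on 0 of 8 arrays and was not tested.

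**Figure D1:**
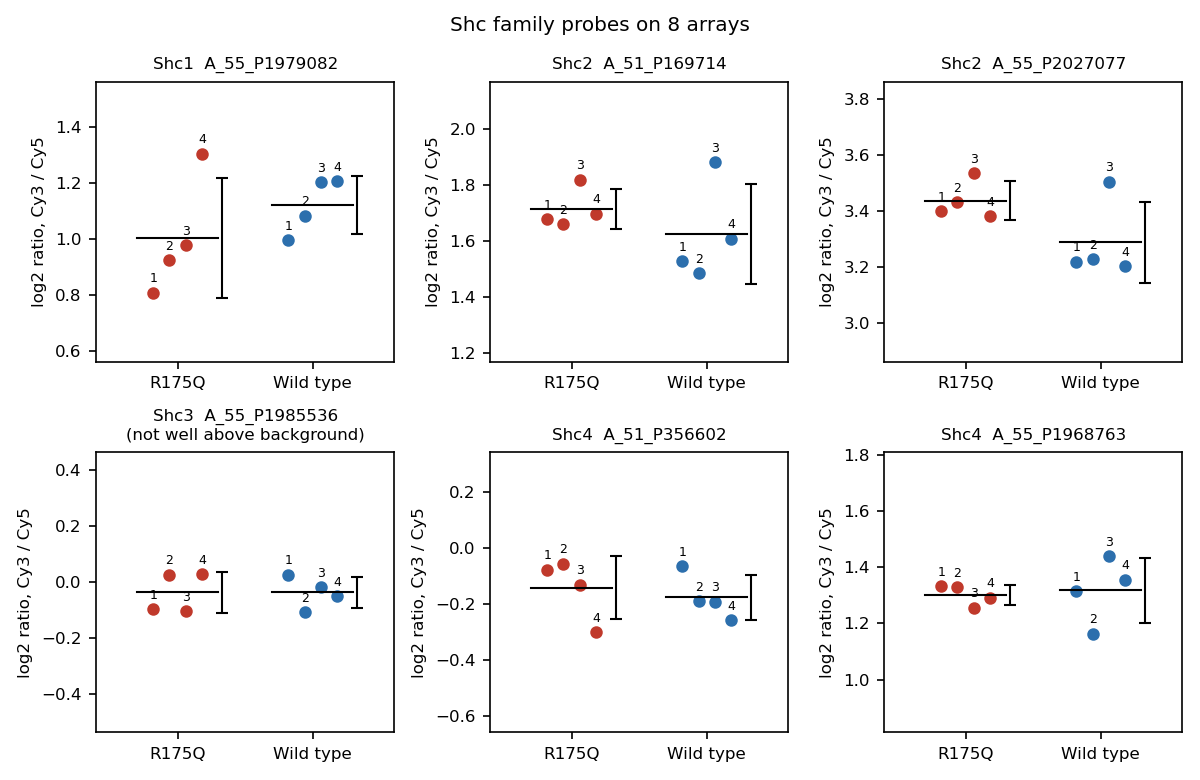
Log2 ratio of sample (Cy3) over reference (Cy5) of each Shc probe on each array, R175Q to the left of wild type; numbers are replicate numbers, horizontal lines group means and bars 1 SD (n = 4). Every panel spans 1 log2 unit, and in every panel the 2 groups overlap.

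Shc1 encodes the adaptor that the cells were made to express. Its probe, at chr3:89233868-89233927 on the plus strand in mm9, is listed in the files for 2 RefSeq transcripts of the gene. The log2 ratio was 0.81, 0.92, 0.98 and 1.30 in R175Q replicates 1 to 4, against 0.99, 1.08, 1.20 and 1.21 in wild-type replicates 1 to 4. R175Q held both the lowest values and the highest one, so the groups overlapped. The mean was 1.00 ± 0.21 in R175Q and 1.12 ± 0.10 in wild type (SD, n = 4 each), about 2.00 times the reference RNA in R175Q and 2.18 times in wild type. The difference was -0.12 ± 0.10 (SE), with a 95% interval of -0.35 to 0.11. It did not pass limma's test over all probes (adjusted p = 0.496), nor an exact two-sided permutation test over the 70 assignments of the arrays (p = 0.343, the smallest possible being 0.0286). In these samples less RNA per cell and fewer cells with the RNA cannot be told apart.

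The highest Shc1 value came from R175Q replicate 4, and the size of the difference depended on that array. Without it the difference was -0.22 ± 0.08 (adjusted p = 0.105 in limma). Within slides that held both groups, R175Q less wild type was -0.07 on slide 2 and -0.16 on slide 3, but 0.10 on slide 4, which held replicate 4 of each group. With slide as a block it was -0.06 ± 0.08 (adjusted p = 0.679). On that same array the Shc1 spot was dimmest in both dyes. Its mean brightness in Cy3 was 9976, 8812, 7168 and 4839 scanner units in R175Q replicates 1 to 4, against 9212, 6147, 8582 and 7178 in wild-type replicates 1 to 4. In Cy5, which holds the same reference on every array, it was 8216, 6841, 5583 and 3117 in R175Q against 7271, 4736, 5971 and 4779 in wild type. The brightness of the reference RNA at this spot thus varied 2.64-fold between arrays and that of the samples 2.06-fold. The part that this variation plays in the ratio was not tested.

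The Shc1 probe gives total Shc1 RNA where it lies and cannot tell the R175Q sequence from the wild-type one, so it does not check the labels. Whether it also reads RNA of the introduced cDNA depends on where that cDNA ends, which was not given in the sources used here.

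Shc2 encodes an adaptor of the same build as ShcA, known from neurons. Both of its probes were read above the reference RNA on every array, but at different levels. The first read 3.28 times the reference in R175Q and 3.08 times in wild type, and the second 10.8 and 9.76 times. The first probe, A_51_P169714, had log2 ratios of 1.68, 1.66, 1.82 and 1.70 in R175Q, against 1.53, 1.48, 1.88 and 1.61 in wild type. Wild-type replicate 3 was the highest of the 8 arrays, and the other wild-type arrays were below all of R175Q. The mean was 1.71 ± 0.07 in R175Q and 1.62 ± 0.18 in wild type (SD, n = 4 each), a difference of 0.09 ± 0.09 (SE, 95% interval -0.11 to 0.29). Neither limma (adjusted p = 0.562) nor the exact permutation test (p = 0.4) called it.

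The second Shc2 probe, A_55_P2027077, at chr10:79080826-79080885 on the minus strand, gave the largest difference among the members. Its log2 ratio was 3.40, 3.43, 3.53 and 3.38 in R175Q, against 3.22, 3.23, 3.50 and 3.20 in wild type. Again 3 wild-type arrays lay below every R175Q array and wild-type replicate 3 lay among them. The mean was 3.44 ± 0.07 in R175Q and 3.29 ± 0.15 in wild type (SD, n = 4 each), or 10.8 times the reference in R175Q and 9.76 times in wild type. These multiples depend on the processing: the scanner's own log2 ratios were 3.83 to 4.04 in R175Q and 3.72 to 4.00 in wild type. The difference was 0.15 ± 0.08 (SE), 1.108-fold, with a 95% interval of -0.03 to 0.32, and it was not called (limma adjusted p = 0.242, exact permutation p = 0.114).

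This call, unlike those of the other 4 tested probes, depended on the processing. Without wild-type replicate 3 the difference was 0.22, and limma's adjusted p was 0.0217. With arrays weighted by their quality it was 0.20 (adjusted p = 0.00638), and with median centring 0.30 (adjusted p = 0.0152), of which 0.24 remained after subtracting the shift of all probes under that scaling. Scaling the spread of the ratios to be equal between arrays turned the sign, to -0.12. Plain normexp gave 0.50 ± 0.35 (SE), and 0.62 ± 0.45 with slide as a block, neither called. Within slides the difference was 0.21, 0.17 and 0.18 on slides 2, 3 and 4. The first Shc2 probe gave 0.13, 0.13 and 0.09 on the same slides, so both had a higher mean in R175Q on each slide that held both groups. On slide 3, however, wild-type replicate 3 read 1.88 at the first probe, above R175Q replicate 3 at 1.82.

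In Cy3 alone the second Shc2 probe had a mean brightness of 1929, 1851, 1980 and 1624 scanner units in R175Q, against 1432, 1295, 1718 and 1444 in wild type. Only wild-type replicate 3 reached into the R175Q range. The Cy5 brightness of that spot was 320.9, 330.8, 318.9 and 296.4 in R175Q and 314, 285.5, 304.2 and 308.9 in wild type. Normalized Cy3 values alone, without the reference channel, gave a difference of 0.23.

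Shc4 encodes the family member that was found last, known from its expression in melanoma and muscle. Its 2 probes gave different pictures of its level against the reference, and neither was called in the comparison. The probe at chr2:125455334-125455393 (minus strand) lay near the reference, with log2 ratios of -0.08, -0.06, -0.13 and -0.30 in R175Q against -0.07, -0.19, -0.19 and -0.26 in wild type. The lowest array, and the highest, were both R175Q. The mean was -0.14 ± 0.11 in R175Q and -0.18 ± 0.08 in wild type (SD, n = 4 each), a difference of 0.03 ± 0.07 (SE, 95% interval -0.13 to 0.20) that was not called (limma adjusted p = 0.799, exact permutation p = 0.543).

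The second Shc4 probe, at chr2:125453931-125453990, is the one with the GA repeat. Its log2 ratio was 1.33, 1.33, 1.26 and 1.29 in R175Q, against 1.32, 1.16, 1.44 and 1.36 in wild type. The R175Q arrays lay close together inside the wild-type range. The mean was 1.30 ± 0.04 in R175Q and 1.32 ± 0.12 in wild type (SD, n = 4 each), and the difference of -0.02 ± 0.07 (SE, 95% interval -0.17 to 0.14) was not called (limma adjusted p = 0.907, exact permutation p = 0.8). All 12 probes that share a run of 15 bases or more with this probe on the same strand were tested. That run was not required to lie in the repeat. Their differences had a median of -0.10, with 0 called higher and 1 lower, where 7.9% and 9.76% of all tested probes were. Of these 12, 8 had a mean log2 ratio over 1 in wild type. The share of all tested probes with such a ratio was not determined, so that count has nothing to be read against. How much of the spot's signal comes from Shc4 RNA and how much from other RNA with such a repeat was not tested.

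Shc3, the neuronal member also called Rai or ShcC, was not well above background in these cells. The spot at chr13:51526518-51526577 had a Cy3 brightness of 49.33, 56.37, 51.57 and 82.52 scanner units in R175Q, against 55.63, 66.37, 60.02 and 53.34 in wild type. The local background around it was 32 to 36 units in R175Q and 32.5 to 37 in wild type. R175Q replicate 4 was the brightest and the rest of the 2 groups overlapped. In Cy5 only wild-type replicate 3 was well above background, so the reference gave no level for Shc3 either. No fold is given for it.

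**Figure D2:**
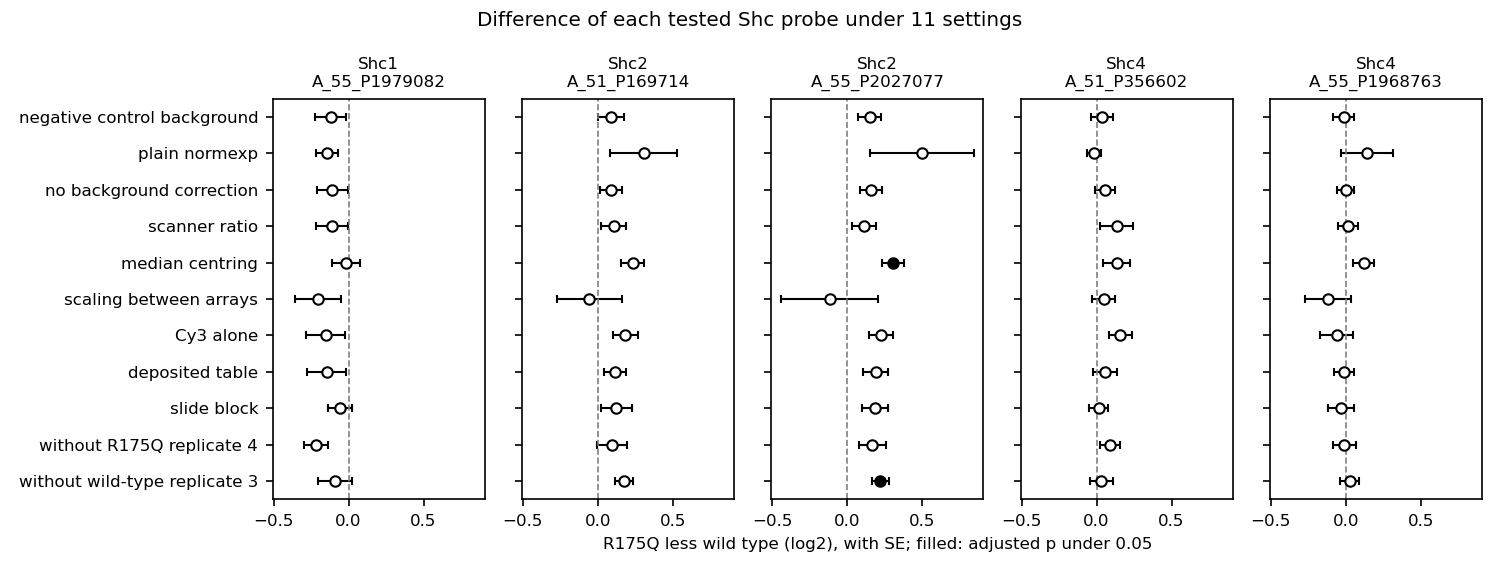
Difference of each tested Shc probe, R175Q less wild type on the log2 scale, under the background, scaling, channel, block and left-out array named at the left; bars are 1 SE and filled points have a limma adjusted p under 0.05. Filled points appear only for the second Shc2 probe, with median centring and without wild-type replicate 3.

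Of 26 alternative settings, 20 moved the Shc1 estimate and 6 leave it as it is by construction. In those 20 it lay between -0.22 and -0.02, and it was called in none of the 26. Plain normexp fits the background level on all spots in place of the negative controls. Under it the within-slide differences of the second Shc2 probe were 1.11, 1.32 and -0.81 on slides 2, 3 and 4, and those of the second Shc4 probe 0.50, 0.47 and -0.54. Those of Shc1 lay closer together, at -0.05, -0.14 and -0.11. The fitted Cy3 background under that method lay between -689.8 and -0.3686 scanner units, against negative control spots whose median Cy3 signals were 13.1 to 22.7 units.

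Over the 8 arrays, the 10 pairs among the 5 tested Shc probes were compared. The 2 Shc2 probes moved together from array to array, with a Pearson's r of 0.90 (exact permutation p = 0.0027, adjusted over the 10 pairs 0.0143) and a Spearman's rho of 0.79 (exact permutation p = 0.0279, adjusted 0.14). Leaving out the 2 arrays farthest from the median of the first Shc2 probe left r at 0.90, and within groups it was 0.92. The 2 Shc4 probes did not, with an r of 0.03 (exact permutation p = 0.955) and a rho of -0.07 (exact permutation p = 0.882). Shc1 ran opposite to the first Shc4 probe, with an r of -0.91 (exact permutation p = 0.00285, adjusted 0.0143) and a rho of -0.88 (exact permutation p = 0.00724, adjusted 0.0724). That relation had an r of -0.90 without the 2 arrays farthest from the median of Shc1, and -0.92 within groups. The rank correlation of neither pair passed the adjustment, all values of an array share its labelling and scaling, and the slides hold too few arrays for an r of their own.

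**Figure D3:**
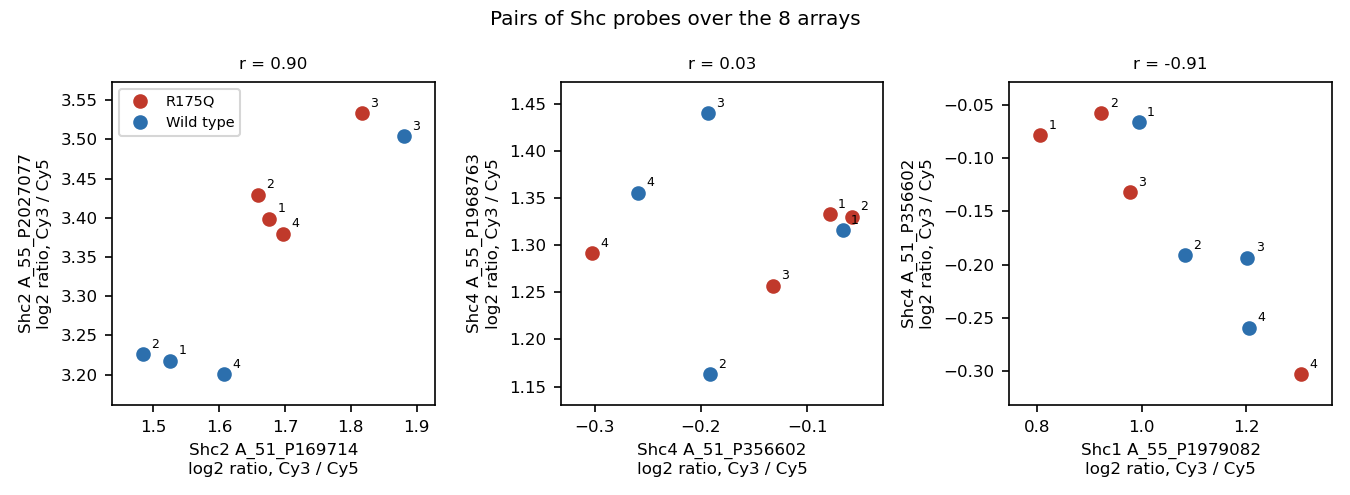
Log2 ratio of 1 Shc probe against another over the 8 arrays, R175Q in red and wild type in blue, with replicate numbers. The Shc2 probes rise together (r = 0.90), the Shc4 probes show no relation (r = 0.03), and the first Shc4 probe falls as Shc1 rises (r = -0.91).

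Among 13320 genes well above background on all 8 arrays, those whose brightest probe followed a Shc probe most closely over the arrays were found by Pearson's r. For Shc1 they were Sh3bgrl (r = 0.98), Gm5935, Vps35, Pdpn and Golga7 (0.96 each). For the first Shc2 probe they were Acp6, Ccdc9, Rmnd5b, Abtb2 and Rilpl1 (0.98 each), and for the second Thap3 and Ankrd13b (0.99 each), Rabep1, Sertad2 and Mob2 (0.98 each). The first Shc4 probe was followed by Fam161b (0.98), Gpatch3 (0.96), Prf1, Rpl29 and Cers6 (0.95 each), and the second by Snn, Capn11 and Parp16 (0.96 each), Prdm2 (0.95) and Fkbp15 (0.94). The lists of the 2 Shc2 probes have no gene in common, nor do those of the 2 Shc4 probes. With 8 arrays and so many candidates such values describe these arrays only.

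The genes that work with ShcA were read from 5 lists, with the brightest tested probe of each gene. In all, 6 of them were higher and 8 lower in R175Q, and the groups did not overlap for any of the 14. Over the 17458 genes with a tested probe, 8.48% were called higher and 9.7% lower, with a median difference of -0.02. Plain normexp with slide as a block left 0 of the 14 called, and scaling between arrays ended the calls of Egfr, Map2k2, Ptpn6 and Irs2 (limma adjusted p = 0.193, 0.300, 0.175 and 0.225). All 14 kept their sign in the 26 alternatives except Ptpn6, which turned in 1 of them. Of these alternatives 7 called Map2k2, 18 Egfr and 19 Pik3cb, and at least 22 called each of the other genes.

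**Figure D4:**
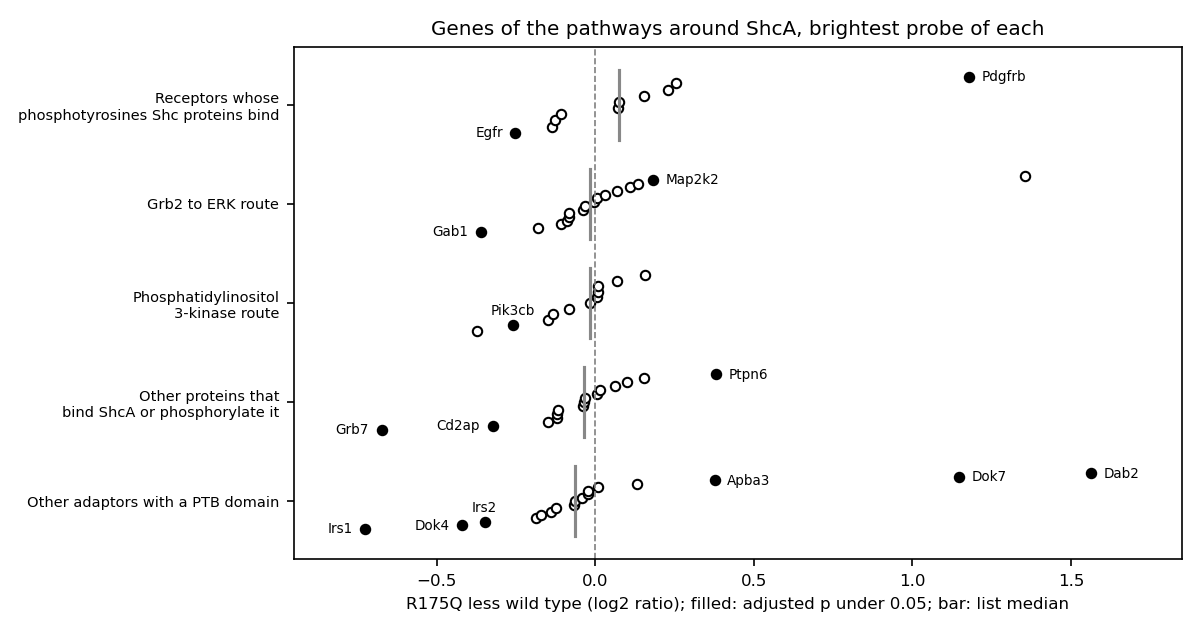
Difference of each tested gene of the 5 lists, R175Q less wild type in log2 ratio, from its brightest probe; filled points have a limma adjusted p under 0.05 and are named, and vertical bars are list medians. Most points lie near 0, with Dab2 (1.56), Pdgfrb (1.18) and Dok7 (1.15) far to the right; the open point on the right is Sos2 (1.36 ± 0.95).

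Of the 15 receptors whose phosphotyrosines Shc proteins bind, 10 were tested, 1 rose, 1 fell and 8 were not called (median 0.07). Pdgfrb, the beta receptor for platelet-derived growth factor, had log2 ratios of -1.28, -1.30, -1.71 and -1.26 in R175Q, against -2.59, -2.55, -2.67 and -2.45 in wild type. Every R175Q array lay above every wild-type one. The difference was 1.18 ± 0.10 (SE, limma adjusted p = 4.89e-05), but under plain normexp it was 0.66 with an adjusted p of 0.0881. Egfr, the receptor for epidermal growth factor, fell by 0.25 ± 0.06 (adjusted p = 0.0172), a call that was lost under plain normexp (adjusted p = 0.0633), under median centring (0.440), and without wild-type replicate 1 or 4 (up to 0.0613). The call was also lost with the authors' deposited values (limma adjusted p = 0.0969) and with Cy3 alone. Erbb2, the receptor through which NT2197 derivatives are known to be activated, had a difference of -0.13 ± 0.06 (adjusted p = 0.202), and its probe was not checked against the introduced receptor's sequence. Erbb3, Erbb4, Ret and Kit were among those without a tested probe.

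Of the 16 genes on the route from Grb2 to ERK, all were tested, 1 rose, 1 fell and 14 were not called (median -0.02). Gab1, a docking protein that joins Grb2 to phosphatidylinositol 3-kinase, fell by 0.36 ± 0.08 (limma adjusted p = 0.0108). Map2k2, which phosphorylates ERK, was higher by 0.18 ± 0.06 (adjusted p = 0.0487). Map2k2 lost its call in 7 of the 8 fits that leave out an array, all but that without wild-type replicate 3. Both lost theirs under plain normexp (adjusted p = 0.253 for Gab1 and 0.126 for Map2k2) and with slide as a block (0.0611 for Gab1 and 0.109 for Map2k2). Grb2, the adaptor that ShcA recruits, had a difference of -0.11 ± 0.07 (adjusted p = 0.372) and Sos1, which loads Ras with GTP, one of 0.11 ± 0.08 (0.413). Both, and Sos2, were named after their values were seen. Sos2, the related exchange factor, had log2 ratios of 6.73, 1.65, 1.98 and 1.86 in R175Q, against 1.67, 1.45, 1.87 and 1.80 in wild type. Its difference of 1.36 ± 0.95 (adjusted p = 0.384) rests on R175Q replicate 1 alone.

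Of the 12 genes of the phosphatidylinositol 3-kinase route, 11 were tested, 0 rose, 1 fell and 10 were not called (median -0.02). The one that fell was Pik3cb, a catalytic subunit of the kinase, by 0.26 ± 0.06 (limma adjusted p = 0.0153). The call was lost under plain normexp (adjusted p = 0.364), under median centring (0.418), and without R175Q replicate 1 or 2 (up to 0.0530).

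All 15 of the other proteins that bind ShcA or phosphorylate it were tested, of which 1 rose, 2 fell and 12 were not called (median -0.03). Grb7, an SH2 adaptor whose gene neighbours Erbb2, had log2 ratios of 0.28, 0.36, 0.17 and 0.18 in R175Q, against 0.98, 0.85, 0.96 and 0.91 in wild type. No R175Q array came near the wild-type values, and the gene fell by 0.67 ± 0.06 (limma adjusted p = 7.92e-05). Cd2ap, a scaffold at cell contacts and the actin skeleton, fell by 0.32 ± 0.06 (adjusted p = 0.00309, and 0.0723 under median centring). Ptpn6, the phosphatase SHP-1, was higher by 0.38 ± 0.08 (adjusted p = 0.0103). Under plain normexp the Ptpn6 difference was 0.07 (adjusted p = 0.855), and with slide as a block its adjusted p was 0.0531.

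Of 23 other adaptors with a PTB domain, the kind of domain that R175Q alters in ShcA, 17 were tested. Here 3 rose, 3 fell and 11 were not called (median -0.06). Dab2, an endocytic adaptor, had log2 ratios of -2.77, -2.66, -2.98 and -2.64 in R175Q, against -4.35, -4.28, -4.33 and -4.34 in wild type. The wild-type arrays lay close together and far below R175Q. The difference was 1.56 ± 0.08 (limma adjusted p = 2e-06), and 0.95 under plain normexp (adjusted p = 0.0435). Dok7, an activator of the receptor MuSK, was higher by 1.15 ± 0.15 (adjusted p = 0.000603), but 0.44 with an adjusted p of 0.387 under plain normexp. Apba3, an adaptor of the X11 family, was higher by 0.38 ± 0.08 (adjusted p = 0.00678).

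Irs1, the main substrate of the insulin and IGF1 receptors, had log2 ratios of -2.34, -2.34, -2.26 and -2.36 in R175Q, against -1.76, -1.68, -1.30 and -1.68 in wild type. The R175Q arrays were close to one another and all below wild type. The gene fell, with a difference of -0.72 ± 0.09 (limma adjusted p = 0.000599). Its relative Irs2 fell by 0.35 ± 0.06 (adjusted p = 0.00454) and Dok4, which binds Ret, by 0.42 ± 0.07 (0.00191). Under median centring Irs2 and Dok4 had adjusted p-values of 0.0559 and 0.0619.

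The labelled cell type was checked against its markers, each by its ratio to the reference. Over all 17458 genes with a tested probe, 8.48% were called higher and 9.7% lower. Of 9 markers of mammary epithelium 7 were tested, Cldn3 and Cldn4 not. Cdh1, the epithelial cadherin, had a mean log2 ratio of 4.74 in R175Q and 4.74 in wild type. The keratins Krt8, Krt18 and Krt19 were above the reference in both groups. They had 1.43, 1.81 and 1.66 in R175Q and 1.64, 2.00 and 2.07 in wild type. Krt7 was at -1.01 in R175Q and 0.89 in wild type. Epcam was at -5.06 in R175Q and -4.79 in wild type, and Cldn7 at -3.42 in R175Q and -3.27 in wild type. The mean over the 7 was -0.02 to 0.05 in R175Q and 0.40 to 0.52 in wild type, and without Krt7 it was 0.15 to 0.22 in R175Q and 0.33 to 0.45 in wild type (median difference of the 7, -0.21). None of the 7 rose and 3 fell, with differences of -1.91 for Krt7, -0.40 for Krt19 and -0.21 for Krt8.

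Of 8 markers of fibroblasts and pericytes, a list that holds Pdgfrb itself, 7 were tested (Lum not), and 4 rose and 0 fell. Beside Pdgfrb these were Dcn by 0.72, Col1a2 by 0.58 and Col3a1 by 0.39. Pdgfra (0.23), Col1a1 (0.08) and Acta2 (-0.01) were not called. Without Pdgfrb the mean over the other 6 was -7.14 to -6.84 in R175Q and -7.46 to -7.21 in wild type, far under the reference in both. The part of such cells, or of such genes in the cells studied, in the Pdgfrb result was not tested. Of the markers of neurons and neural crest, where Shc2, Shc3 and Shc4 are known, 5 of 6 were tested (Sox10 not). Their mean was 0.73 to 0.80 in R175Q and 0.86 to 0.94 in wild type, and 1 fell, Map2, with a difference of -0.66. Without Map2 the mean over the other 4 was 0.40 to 0.45 in R175Q and 0.40 to 0.45 in wild type. Of the tested markers 2 of 7 for macrophages fell (Mrc1 and Adgre1), 1 of 3 for endothelium rose (Vwf) and 0 of 3 for lymphocytes were called. Beside the shares over all genes, 8.48% higher and 9.7% lower, counts of 0 or 1 in lists this small say little.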

How the data were processed

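RNA of 8 samples was measured on 2-colour Agilent arrays. Per the labels' protocols, 1 to 2.5 ng of RNA went through a linear amplification that was repeated once, and 5 µg was labelled. The labels call the Cy5 reference mouse in 1 field and human in another, and they speak both of microdissected material and of cells in culture. Neither conflict was settled.

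Per the file headers, Feature Extraction 9.5.3.1 wrote mean spot intensity, median local background intensity and a log10 ratio of Cy5 over Cy3. In the deposited table of the authors' own values, log2 ratios run as Cy3 over Cy5, judged against the scanner ratio. Its scaling and centring are unstated (column medians 0.0524 to 0.0617).

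From the intensities, background was corrected in limma 3.58.1 (R 4.3.3, statmod 1.5.0) by normexp with an offset of 50, its level taken from the 153 negative control spots of each array. Loess within arrays followed. Spots of a probe were averaged. A probe was tested where Cy3 stood well above background on 4 arrays or more, and 122 with an unreliable spot were left out. R175Q and wild type were compared in a two-sided lmFit and eBayes fit, p-values being adjusted by Benjamini-Hochberg over 22849 probes at a threshold of 0.05. Values after ± are SE of the difference unless named SD.

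Positions are those of the array files (mm9). The sequence of 1 probe and some gene names are not reported here. Symbols of 26761 probes matched RefSeq's GRCm38.p6 annotation, which changed 2878. Named were every Shc probe, the list members past the threshold (up to 8 a list, or 2 with the lowest p), and the 5 genes most like each Shc probe; Erbb2, Grb2, Sos1, Sos2 and the markers were named besides. Members and lists were chosen with earlier results of these data known. In simulated data a far smaller share of probes was changed than was called here. The test recovered 8%, 72%, 94% and 100% of those changed by 0.25, 0.5, 1 and 2 log2. Of its calls 4.2% were false. The adjusted p depends on the share of changed probes, so recovery in the real data may differ. The number of arrays limits the precision. Slide 1 held only R175Q replicate 1, slide 2 R175Q replicate 2 and wild-type replicate 1, slide 3 R175Q replicate 3 and wild-type replicates 2 and 3, and slide 4 replicate 4 of both.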

Additional observations from a re-analysis of the deposited data

Results flagged for a closer look

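Wild-type replicate 3 stood apart from the rest of its group at the second Shc2 probe (A_55_P2027077). Its log2 ratio of 3.50 was above the other wild-type arrays by a gap of 0.918 of the group's whole range, over the critical value of 0.829 for 4 samples. The R175Q arrays at the same probe gave 0.677. Over the 6 Shc probes and 2 groups, 12 such gaps were checked and this was the only one past the limit; chance passes about 1 group in 20.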

How the results depend on the processing

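Of 26 alternatives, 20 moved the Shc1 estimate; it kept its direction in those and was called in none of the 26. Plain normexp gave 0.30 and 0.50 for the Shc2 probes, -0.0168 for the first Shc4 probe and 0.14 for the second, with 483 probes higher and 429 lower and 2 list genes higher and 5 lower. With slide as a block added, these were 0.37 and 0.62 for Shc2, -0.0236 and 0.18 for Shc4, 0 and 1 probes, and 0 and 0 list genes. The scanner ratio gave 0.015 for the second Shc4 probe. Median centring gave 0.12 for it, 0.30 for the second Shc2 probe, 2791 probes higher and 813 lower, and 3 list genes lower; it moved the median of all probes to 0.07 from -0.02. Scaling between arrays gave -0.0578 and -0.12 for the Shc2 probes, with 1041 higher and 1154 lower. Array weights gave 0.20 for the second Shc2 probe, 3781 higher and 4895 lower, and 13 and 13 list genes.

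Leaving out each array gave -0.22 to -0.05 for Shc1, 0.04 to 0.17 and 0.12 to 0.22 for the Shc2 probes, 0.01 to 0.09 and -0.0678 to 0.0246 for the Shc4 probes, 1293 to 2496 probes higher and 1466 (without wild-type replicate 1) to 2657 lower, and 5 to 6 list genes higher and 7 to 9 lower. Without wild-type replicate 3 the second Shc4 probe was at 0.0246 and the second Shc2 probe was called at 0.22. Deviations of same-numbered arrays correlated with r of 0.33, 0.01, 0.46 and 0.05, so the numbers were not taken to pair the arrays, although the arrays of numbers 3 and 4 also share a slide. The replicate block gave 2095 probes higher and 2522 lower and changed no Shc call (Shc1 -0.12, adjusted p = 0.290 in limma). Shc3 was at background and has no difference. In the simulation only 8% of changes of 0.25 log2 were recovered, and smaller ones were not tried, while Map2k2 was called at 0.18 in these data. Each tested Shc probe differed by less than 0.25 in the main fit, so the lack of a call does not show that there was no change.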
